A study of Mus musculus with 16 samples.

Results

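The genes described are 7 targets of SREBP2 (sterol regulatory element binding protein 2) that act in or control cholesterol synthesis: Hmgcs1, Idi1, Fdps, Fdft1, Sqle, Lss and Insig1. They were taken from the deposited log2 table by gene symbol, with the probe of highest mean over the 16 arrays standing for each gene. All 7 passed the filter on dim probes and were well above background on 16 of 16 arrays, so they make up 7 of the 31480 genes tested. The values are from livers of male mice aged 6 weeks that differ in the gene of ceramide synthase 2 (CerS2), the enzyme that makes ceramides with very long acyl chains.

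Each of 4 genotypes had 4 mice, with 1 array per mouse. H/A (condition HA) is taken here to carry an alanine in place of a histidine of CerS2, which the labels do not spell out. Del (condition delHox) and Flox (condition delneo) are engineered CerS2 lines whose exact alleles the labels do not describe, and WT is wild type. The labels give no promoter, Cre driver, littermate status or feeding state, and all mice shared a mixed C57BL/6 and SV129 background. No probe could be assigned to Cers2 itself, which leaves the altered gene unread as a check of the genotypes. Liver tissue holds several cell types, and in such bulk RNA fewer cells of a type and less RNA per cell cannot be told apart.

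SREBP2 is made as a membrane protein of the endoplasmic reticulum and is escorted by SCAP to the Golgi, where proteases release the part that enters the nucleus. When membrane sterols are plentiful, INSIG proteins hold SCAP back, and the targets of SREBP2 are transcribed less. Hmgcs1, Idi1, Fdps, Fdft1, Sqle and Lss encode enzymes on the route that runs by way of mevalonate, isoprenoids and squalene to lanosterol and cholesterol. The liver is a main site of this synthesis.

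The pairing of labels and scanner files bears on every comparison here. For 6 of 16 arrays the slide named in the label differed from the slide of the listed scanner file. In all 6, the column of the log2 table matched the file at the labelled slide and position (r between 0.965 and 0.998), and not the listed file (r between -0.468 and 0.343). The 6 arrays form 3 exchanged pairs, and in 2 pairs the exchanged arrays have different genotypes: H/A replicate 4 with Flox replicate 1, and Del replicate 1 with WT replicate 3. The results below use the labels with the log2 table. With the scanner files as listed, 0 of the 7 genes were called in any comparison, and of 31480 genes tested by limma 5 were called in H/A against WT (1472 at an unadjusted p under 0.05), 0 in Del against WT (1606) and 0 in Del against Flox (2106). The share of spots well above background was between 51.6% and 65.2% per array, and the summed macrophage markers given below moved with genotype. So did the sum of 5 neutrophil markers, of which only S100a8 and S100a9 were called higher in H/A against WT. In Del against WT only S100a8 was, and the median log2 change of the 5 was -0.184, against -0.106 over all genes.

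On the arrays as labelled, Idi1 was higher and Fdps was lower in H/A and Del livers together than in WT and Flox livers together. Hmgcs1, Sqle and Lss were also called higher and Insig1 lower in that comparison, but these calls were lost on leaving out single arrays. These were 6 calls among 7 genes, where 50.4% of all genes were called. In the comparisons of 2 genotypes only Fdps and Idi1 passed the test, in Del livers: Fdps against WT, where 13.2% of all genes were called, and both against Flox, where 34.8% were. Idi1 and Fdps, a pair of neighbouring enzymes, went opposite ways.

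**Figure D1:**
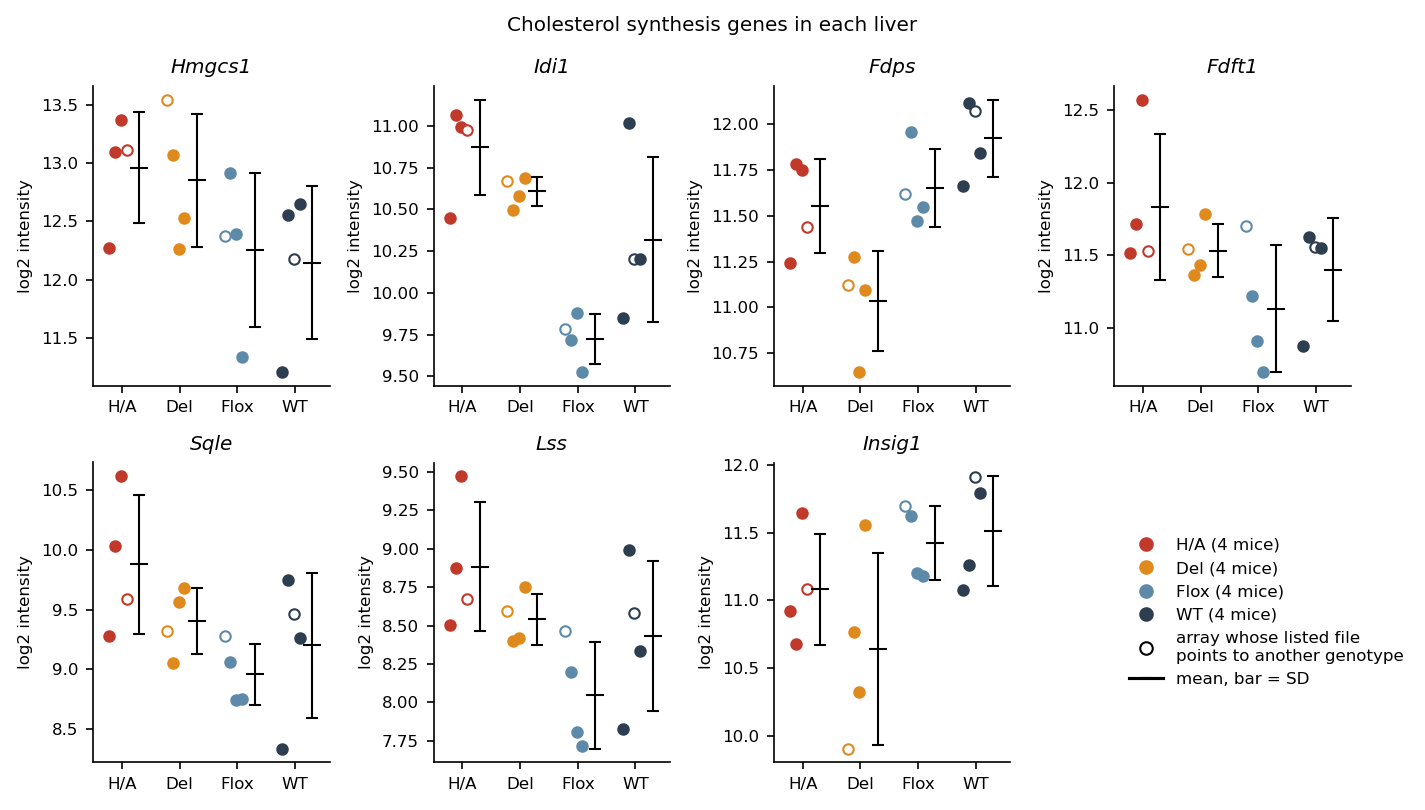
Log2 intensity (vertical axes) of each gene in every liver, by genotype (H/A, Del, Flox and WT from left to right), with the group mean and SD beside the points. Open points are the 4 arrays whose listed scanner file carries another genotype. The 4 Del livers lie between 10.65 and 11.28 for Fdps, below all Flox and WT livers, and the 4 Flox livers lie between 9.53 and 9.88 for Idi1, below all Del and H/A livers.

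Hmgcs1 (HMG-CoA synthase, which supplies the mevalonate route) had log2 intensities of 12.27, 13.10, 13.37 and 13.11 in H/A livers and 13.54, 13.07, 12.27 and 12.53 in Del livers. It had 12.37, 12.91, 12.39 and 11.34 in Flox livers and 11.21, 12.55, 12.18 and 12.64 in WT livers. The ranges of the 4 groups overlapped, and Flox replicate 4 and WT replicate 1 were the lowest of all 16. Hmgcs1 averaged 12.96 ± 0.48 in H/A, 12.85 ± 0.57 in Del, 12.25 ± 0.66 in Flox and 12.15 ± 0.66 in WT livers (SD, n = 4 each). The changes were 0.82 on the log2 scale in H/A against WT (95% interval 0.0036 to 1.63) and 0.60 in Del against Flox (-0.21 to 1.41), and neither passed the test (limma, Benjamini-Hochberg adjusted p = 0.151 and 0.215). Its spread within groups, an SD of 0.596, was at the 91.5th percentile of all genes tested, whose median SD was 0.265.

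Idi1 (isopentenyl diphosphate isomerase, which balances the pair of isoprenoid building blocks) had log2 intensities of 10.45, 11.07, 10.995 and 10.98 in H/A livers and 10.67, 10.49, 10.58 and 10.69 in Del livers. It had 9.78, 9.72, 9.88 and 9.53 in Flox livers and 9.85, 11.02, 10.21 and 10.20 in WT livers. All Flox livers were below all Del and H/A livers, while WT replicate 2 lay as high as the H/A livers. In Del against Flox Idi1 rose 1.84-fold, or 0.88 as a log2 change (95% interval 0.45 to 1.32, adjusted p = 0.0067). In H/A against WT it was higher by 0.55 (0.12 to 0.99), which did not pass (adjusted p = 0.0865). It passed there without WT replicate 2 (0.79, adjusted p = 0.00628) and without H/A replicate 1 (0.69, adjusted p = 0.0417), and the adjusted p was over 0.05 on leaving out any other single array. The order of the group means was H/A 10.87, Del 10.61, WT 10.32 and Flox 9.73, and no neighbours in that order passed the test. WT and Flox, both controls, differed by as much as H/A and WT did: Idi1 was 0.59 lower in Flox than in WT (-1.03 to -0.16, adjusted p = 0.802, unadjusted p = 0.0107).

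Fdps (farnesyl diphosphate synthase, which joins those building blocks into the precursor of squalene and of protein prenyl groups) had log2 intensities of 11.24, 11.78, 11.75 and 11.44 in H/A livers and 11.12, 11.28, 10.65 and 11.10 in Del livers. It had 11.62, 11.96, 11.47 and 11.55 in Flox livers and 11.66, 12.12, 12.07 and 11.84 in WT livers. All Del livers were below all Flox and all WT livers, and the H/A livers overlapped with every other group. In Del against WT Fdps had a log2 change of -0.89, or -46.0% (95% interval -1.25 to -0.52, adjusted p = 0.00341). It fell by 0.61 in Del against Flox (-0.98 to -0.25, adjusted p = 0.0163), a call that was lost without Del replicate 3 (-0.48, adjusted p = 0.0589). Leaving out any other single array kept it, with adjusted p-values from 0.0132 upwards. Scanner files paired by label at the 75th percentile gave -0.48 (limma adjusted p = 0.0625), and 12 arrays without those of disputed genotype gave -0.65 (adjusted p = 0.0622). In all, 8 of 32 alternatives lost the call of Fdps in Del against Flox. In H/A against WT the difference was -0.37 (-0.74 to -0.0066), which did not pass (adjusted p = 0.147). The order of means was WT 11.92, Flox 11.65, H/A 11.55 and Del 11.04. The step between H/A and Del, 0.52 (0.15 to 0.88), did not pass over all genes (adjusted p = 0.52, unadjusted p = 0.00843). Fdps was read by 1 probe, whose sequence is given because the fall of this gene rests on it alone. The gene lies on chromosome 3, which also carries Cers2.
Fdps probe: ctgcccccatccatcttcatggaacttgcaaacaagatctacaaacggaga

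Fdft1 (squalene synthase, the first enzyme committed to sterols) averaged 11.83 ± 0.50 in H/A, 11.53 ± 0.18 in Del, 11.13 ± 0.44 in Flox and 11.40 ± 0.35 in WT livers. Its livers ran 11.51 to 12.57 in H/A, 11.37 to 11.79 in Del, 10.69 to 11.70 in Flox and 10.87 to 11.63 in WT, so the groups overlapped. No comparison of Fdft1 passed the test, and the probes of this gene disagreed. A second, dimmer probe averaged 6.45 ± 0.25 in H/A, 6.18 ± 0.41 in Del, 6.87 ± 0.30 in Flox and 6.70 ± 0.17 in WT livers. In a fit of all 37814 kept probes it fell by 0.69 in Del against Flox (adjusted p = 0.0219), where the brighter probe differed by 0.40 (-0.15 to 0.95). Over 16 arrays the values of the 2 probes correlated with r = -0.201, so no direction is given for Fdft1.

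Sqle (squalene epoxidase, the first oxygen-requiring step) ran 9.28 to 10.62 over H/A livers, 9.05 to 9.68 over Del livers, 8.74 to 9.28 over Flox livers and 8.33 to 9.75 over WT livers. It averaged 9.88 ± 0.58 in H/A, 9.41 ± 0.28 in Del, 8.96 ± 0.26 in Flox and 9.20 ± 0.61 in WT livers. Lss (lanosterol synthase, which closes the sterol rings) ran 8.51 to 9.47 over H/A livers, 8.40 to 8.75 over Del livers, 7.72 to 8.46 over Flox livers and 7.83 to 8.995 over WT livers. For both genes H/A replicate 3 was the highest of the 16 livers, and no comparison of 2 genotypes passed. The changes in H/A against WT were 0.68 for Sqle (95% interval 0.04 to 1.32, adjusted p = 0.134) and 0.45 for Lss (-0.08 to 0.98, adjusted p = 0.215). The 3 probes of Lss went together over the arrays (r between 0.823 and 0.837). In H/A and Del against WT and Flox, only the brightest of them passed in the limma fit of all 37814 kept probes. The others were at 0.44 (adjusted p = 0.143) and 0.29 (adjusted p = 0.293) there.

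Insig1 (the protein that retains SCAP, and itself a target of SREBP2) had log2 intensities of 10.92, 10.68, 11.64 and 11.09 in H/A livers and 9.90, 10.77, 10.32 and 11.56 in Del livers. It had 11.70, 11.63, 11.20 and 11.18 in Flox livers and 11.08, 11.26, 11.92 and 11.80 in WT livers. Del replicates 1 and 3 were the lowest of all, whereas Del replicate 4 lay among the controls. Insig1 was lower by 0.87 in Del against WT (95% interval -1.53 to -0.22, adjusted p = 0.072) and by 0.79 in Del against Flox (-1.45 to -0.13, adjusted p = 0.0585), and neither difference passed. Without Del replicate 4 both passed (-1.18, adjusted p = 0.0127, against WT and -1.10, adjusted p = 0.013, against Flox). The adjusted p on leaving out 1 array at a time was between 0.0127 and 0.198 against WT, and between 0.013 and 0.163 against Flox. In H/A against WT the difference was -0.43 (-1.09 to 0.23).

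Promoter windows of 300 bases, reaching 250 bases before and 50 bases after the annotated start, were given for 4 of the 7 genes (RefSeq, GRCm38.p6). They are shown for Hmgcs1, Idi1 and Insig1, of which the first and second were called higher and the last lower in H/A and Del livers together. Lss was also called higher there, and its window is described but not shown. Capitals mark the letters TCACNCCAC, the core of a sterol regulatory element that SREBP2 binds, and CCAAT, the box bound by NF-Y, a usual partner of SREBP2, each searched on both strands (the reverse of CCAAT reads ATTGG). The windows lie at chr13:119690101-119690400 for Hmgcs1, chr13:8885356-8885655 for Idi1 and chr5:28071162-28071461 for Insig1, all on the plus strand.
Hmgcs1: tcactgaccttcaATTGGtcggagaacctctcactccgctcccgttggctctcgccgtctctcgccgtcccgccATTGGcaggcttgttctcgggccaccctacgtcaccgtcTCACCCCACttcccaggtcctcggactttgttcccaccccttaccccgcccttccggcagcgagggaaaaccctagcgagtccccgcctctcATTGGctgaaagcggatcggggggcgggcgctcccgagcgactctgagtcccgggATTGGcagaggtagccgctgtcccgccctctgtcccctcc
Idi1: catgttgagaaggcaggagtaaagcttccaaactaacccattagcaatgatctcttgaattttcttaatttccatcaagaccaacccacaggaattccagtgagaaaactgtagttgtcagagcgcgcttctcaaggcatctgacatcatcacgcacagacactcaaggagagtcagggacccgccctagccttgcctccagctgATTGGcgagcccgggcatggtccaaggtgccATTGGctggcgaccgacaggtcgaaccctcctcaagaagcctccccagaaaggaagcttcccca
Insig1: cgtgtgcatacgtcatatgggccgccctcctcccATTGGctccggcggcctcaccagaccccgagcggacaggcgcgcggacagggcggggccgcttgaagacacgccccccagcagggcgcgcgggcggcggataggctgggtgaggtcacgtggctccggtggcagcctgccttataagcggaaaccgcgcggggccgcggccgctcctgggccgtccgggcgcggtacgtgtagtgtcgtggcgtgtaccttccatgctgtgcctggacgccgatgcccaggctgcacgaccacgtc

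The Hmgcs1 window held 1 sterol regulatory element core, which began 137 bases before the start, and 4 CCAAT boxes. The Idi1 window held 2 CCAAT boxes, 45 and 14 bases before the start, and no match to the core. The windows of Insig1 and Lss each held 1 CCAAT box, 216 and 62 bases before the start. Of all 32851 promoter windows of this length, 1.24% held the core and 37.4% a CCAAT box. A match describes the letters only, and a window without one says nothing of binding elsewhere.

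In H/A against WT, 0 of the 7 genes were called by limma, where 10.1% of all genes tested were called. At an unadjusted p under 0.05 there were 4 (Hmgcs1, Sqle, Idi1 and Fdps). The median change of the 7 was 0.449 on the log2 scale, against -0.095 over all genes. In Del against WT, 1 of the 7 was called, Fdps, where 13.2% of all genes were called, and the median change was 0.131 against -0.106. Fdps was also the 1 gene whose groups did not overlap there, as those of 17.8% of all genes did not. In Del against Flox, 2 were called, Idi1 and Fdps, where 34.8% of all genes were called, and the median change was 0.446 against -0.141. The groups of these 2 did not overlap, as those of 33.5% of all genes did not. The share called was thus near or below that of all genes in each of these comparisons, which share the WT and the Del arrays with each other.

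The 2 mutant genotypes and the 2 control genotypes were also set against each other. In H/A against Del, 0 of the 7 were called (0.0127% of all genes), with 1 at an unadjusted p under 0.05, Fdps. The changes lay between 0.11 for Hmgcs1 (95% interval -0.70 to 0.92) and 0.52 for Fdps. In Flox against WT, 0 were called (0.0222% of all genes), with 1 at an unadjusted p under 0.05, Idi1. The median change of the 7 there was -0.27, against 0.023 over all genes.

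**Figure D2:**
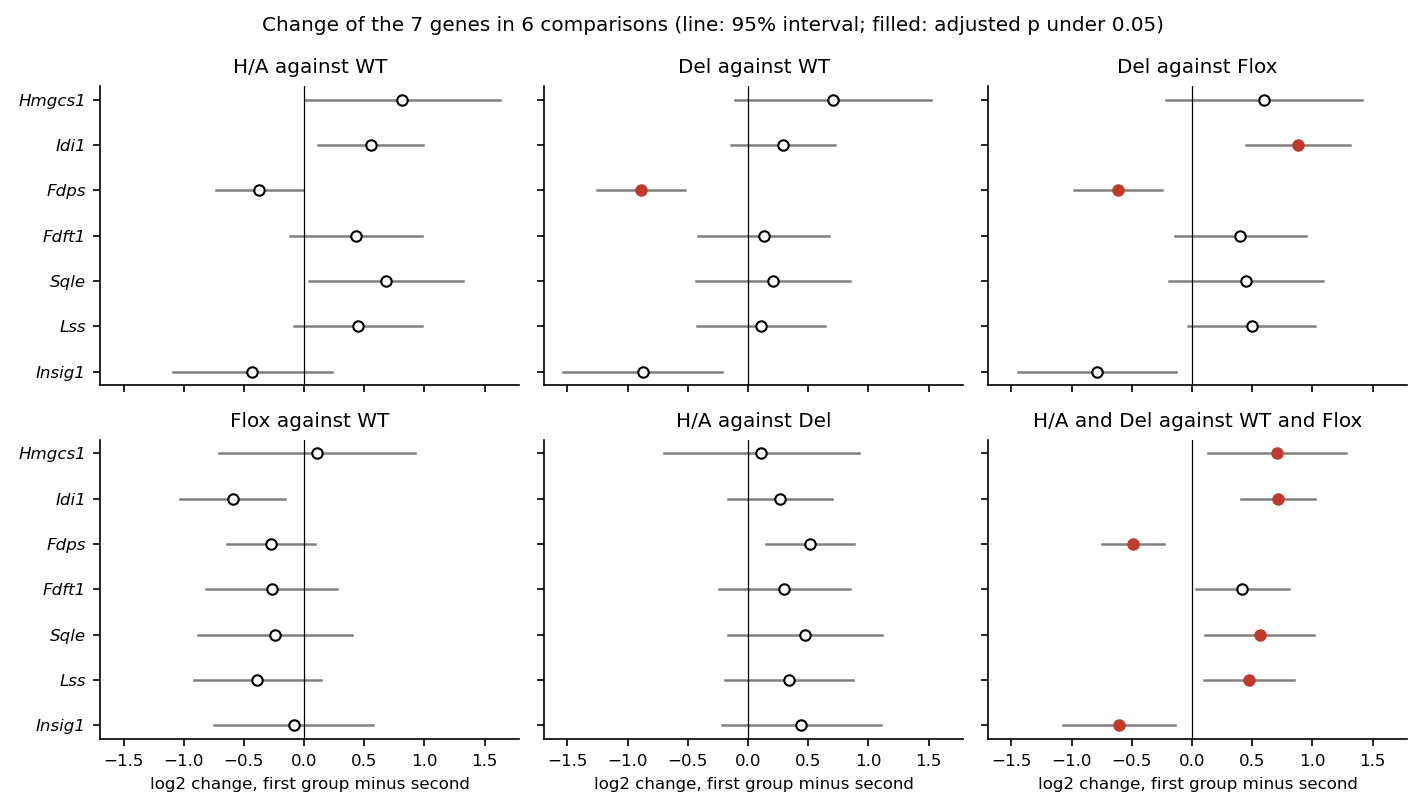
Log2 change (horizontal axes, first group minus second) of the 7 genes in each of 6 comparisons, with 95% intervals from limma and filled points at an adjusted p under 0.05. Filled points appear for Fdps in Del against WT, for Idi1 and Fdps in Del against Flox, and for 6 genes in H/A and Del against WT and Flox.

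With the 8 H/A and Del livers set against the 8 WT and Flox livers, 6 of the 7 genes were called, 4 higher and 2 lower, where 50.4% of all genes were called (21.2% higher and 29.2% lower). As log2 changes, Idi1 rose by 0.72 (95% interval 0.41 to 1.02, adjusted p = 0.0017), Hmgcs1 by 0.71 (0.13 to 1.28, adjusted p = 0.0407), Sqle by 0.56 (0.11 to 1.01, adjusted p = 0.039) and Lss by 0.47 (0.10 to 0.85, adjusted p = 0.0369). Fdps fell by 0.49 (-0.75 to -0.23, adjusted p = 0.00546) and Insig1 by 0.61 (-1.07 to -0.14, adjusted p = 0.0318). The brighter probe of Fdft1 differed by 0.42 and did not pass (0.03 to 0.80, adjusted p = 0.0663), and its dimmer probe passed with the opposite sign (-0.47, adjusted p = 0.0169). In none of the 7 did the 8 mutant livers lie wholly apart from the 8 control livers, as those of 5.71% of all genes did. These values use the same arrays as the comparisons above and add no independent sample.

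Leaving out each of the 16 arrays in turn kept the calls of Idi1 and Fdps 16 times of 16. Insig1, Lss and Sqle were called 8 times of 16 and Hmgcs1 6 times. Adjusted p-values reached 0.066 for Insig1, 0.077 for Lss, 0.0805 for Sqle and 0.0828 for Hmgcs1. Without the 4 arrays of disputed genotype, 12 arrays called Idi1 (0.68), Fdps (-0.47) and the brighter probe of Fdft1 (0.59), against 31.0% of all genes, and 4 genes were no longer called. Of these, Sqle was at 0.72 and Lss at 0.59, larger than with 16 arrays, and Hmgcs1 was at 0.59 and Insig1 at -0.38, smaller than with 16 arrays. Without all 6 arrays of differing slide, 10 arrays called 0 of the 7, against 8.31% of all genes, with Idi1 at 0.59 and Fdps at -0.38. Within the first slide by label, which held 1 Del array, Idi1 was 0.66 higher and Fdps 0.48 lower. Within the second slide, which held 1 H/A array, Idi1 was 0.83 higher and Fdps 0.51 lower, and of these 4 values only that of Idi1 on the second slide passed. The lone array of a genotype on a slide was taken to vary like the others.

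**Figure D3:**
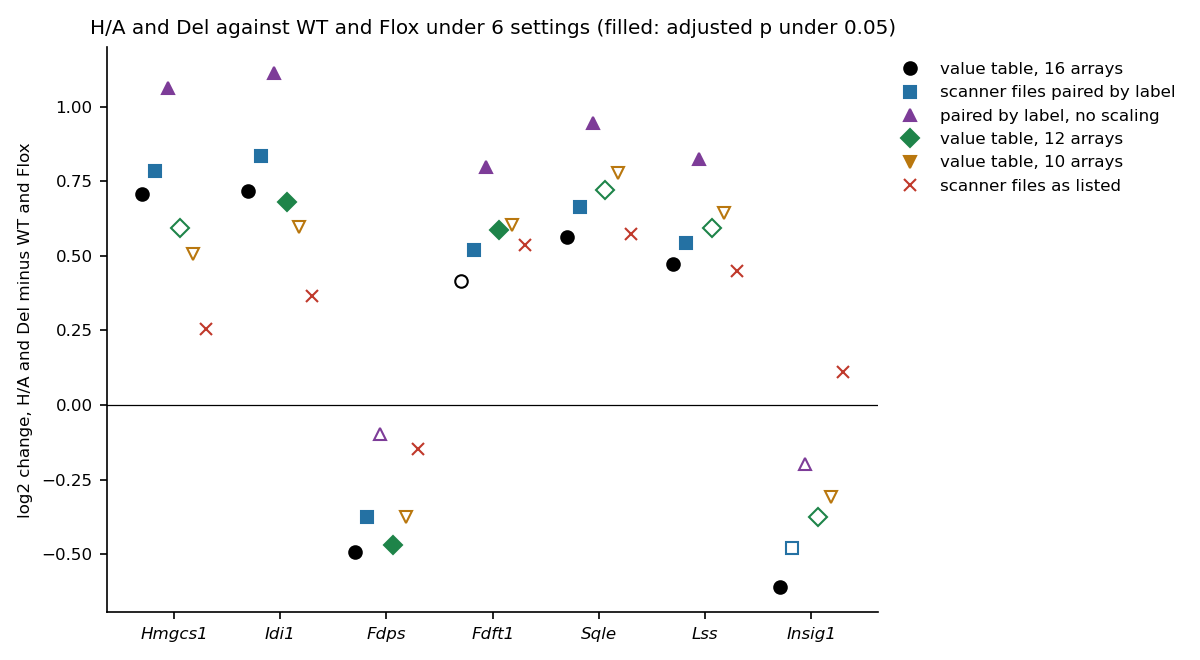
Log2 change of H/A and Del minus WT and Flox (vertical axis) for the 7 genes under 6 settings of the arrays and their scaling, with filled symbols at an adjusted p under 0.05. Idi1 stays between 0.36 and 1.11 and Fdps between -0.49 and -0.096, whereas Insig1 runs between -0.61 and 0.11.

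The size of these changes depended on scaling between arrays. Unscaled signals had upper quartiles (75th percentiles) of 109.3 to 173.1 over H/A arrays, 91.2 to 114.8 over Del arrays, 86.05 to 111.6 over Flox arrays and 89.7 to 98.8 over WT arrays, so the H/A arrays lay above the WT arrays. With no scaling the median of all genes in H/A against WT was 0.373 on the log2 scale, and 5 of the 7 genes were called there, against 30.3% of all genes. On that scale Fdps differed by 0.21 and Insig1 by 0.17 in H/A against WT, above 0 but below the median of all genes. With no scaling in H/A and Del against WT and Flox, the median of all genes was 0.109, and Fdps, at -0.096, was not called. Idi1, at 1.11, was called.

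Within an array the log2 intensity of Idi1 minus that of Fdps does not change when all values of that array are shifted alike. The size of this difference reflects how bright the probes are, and only its shift between groups can be read. It was -0.80, -0.72, -0.75 and -0.46 in H/A livers and -0.46, -0.78, -0.06 and -0.41 in Del livers. It was -1.84, -2.24, -1.60 and -2.03 in Flox livers and -1.81, -1.10, -1.87 and -1.64 in WT livers. All 8 H/A and Del livers lay above all 8 Flox and WT livers. The pair of genes was chosen after its values were seen, so no test is given, and the share of all gene pairs that lie apart in this way was not computed. Another difference, Hmgcs1 minus Insig1, was looked at too. It was 1.35 to 2.42 in H/A, 0.97 to 3.64 in Del, 0.16 to 1.29 in Flox and 0.13 to 1.29 in WT livers. All H/A livers thus lay above all Flox and WT livers, and of the Del livers only replicate 4, at 0.97, did not. In scanner files paired by label, Idi1 minus Fdps kept H/A and Del apart from Flox and WT. It was -0.83 to -0.44 in H/A, -0.75 to -0.07 in Del, -2.26 to -1.56 in Flox and -1.84 to -1.17 in WT. In scanner files as listed the groups overlapped for Idi1 minus Fdps, at -1.83 to -0.70 in H/A, -1.84 to -0.07 in Del, -2.26 to -0.44 in Flox and -1.84 to -0.44 in WT.

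**Figure D4:**
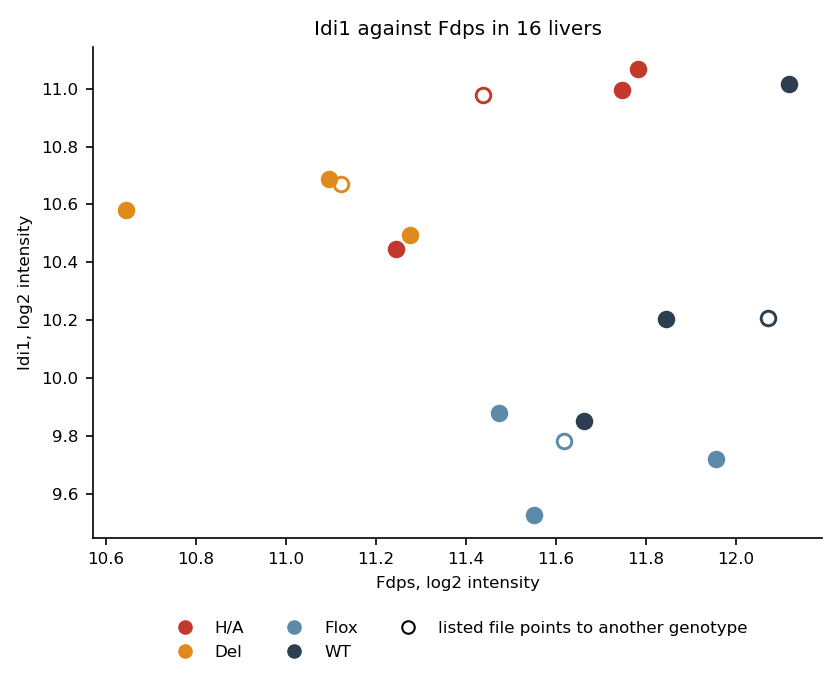
Log2 intensity of Idi1 (vertical axis) against that of Fdps (horizontal axis) in the 16 livers, coloured by genotype, with open points for the 4 arrays whose listed scanner file carries another genotype. H/A and Del livers together overlap with Flox and WT livers together along each axis, and only the difference of both values sets them apart. This pair of genes was chosen after its values were seen. WT replicate 2, at 11.02 for Idi1, lies above all Del livers and has the highest Fdps value, 12.12.

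Within genotypes Sqle, Lss and Fdft1 varied together from liver to liver, and for most other pairs of the 7 genes this did not pass the test. After removal of the group means, all 21 pairs had a positive Pearson r over the 16 livers, between 0.034 and 0.928 with a median of 0.566. In permutations within groups (two-sided), 6 of the 21 pairs passed Benjamini-Hochberg adjustment by Pearson's r and 3 by Spearman's rho. Those 3 were Sqle with Lss (r = 0.928, rho = 0.918, permutation adjusted p = 0.00049 and 0.00063), Lss with Fdft1 (r = 0.922, rho = 0.956, permutation adjusted p = 0.00042 for both) and Sqle with Fdft1 (r = 0.871, rho = 0.906, permutation adjusted p = 0.00049 and 0.00052). Without the 2 livers farthest from the median these were 0.897, 0.94 and 0.85. Fdft1 here is its brighter probe.

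Insig1 and Idi1 had the lowest of these values (r = 0.034, rho = -0.006, permutation adjusted p = 0.91 and 0.99), and Idi1 with Fdps had r = 0.489 (rho = 0.397, permutation adjusted p = 0.09 and 0.19). Without the 4 arrays of disputed genotype all 21 stayed positive (0.119 to 0.936). On the first slide by label they ran between 0.075 and 0.977, all positive, and on the second between -0.287 and 0.907, with 17 positive. On the second slide Sqle with Lss was 0.805, Lss with Fdft1 0.907 and Sqle with Fdft1 0.818, while Idi1 with Fdps was -0.287, against 0.754 on the first slide.

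The genes whose log2 profile over 16 arrays was most like the mean standardised profile of the 7 were mostly enzymes of the same route. In order they were Msmo1 (sterol C4-methyl oxidase, r = 0.919), Mvd (mevalonate diphosphate decarboxylase, 0.85), Hsd17b7 (a sterol ketoreductase, 0.831), Mvk (mevalonate kinase, 0.813), S100a9, Rogdi, Cyp51 (lanosterol demethylase) and Hk2, the last at 0.778. By deviations from group means the first was S100a9 (0.893), a subunit of calprotectin abundant in neutrophils, followed by Msmo1, Hk2, Pmvk, Abi3, Gbp9, S100a8 and Fcgr4 (0.852). Values of S100a8 and S100a9 thus went with the mean profile of the 7 genes from liver to liver, which does not give their relation to each gene. These correlations are descriptions over 16 arrays that share genotype and slide.

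Of 17 further cholesterol synthesis enzymes listed, 15 were tested. For H/A against WT 2 rose and 0 fell, in Del against WT 3 rose and 1 fell, and in Del against Flox 4 rose and 1 fell. The share called was 13.3%, 26.7% and 33.3%, against 10.1%, 13.2% and 34.8% of all genes. With both mutants against both controls 8 rose and 1 fell, or 60.0% called against 50.4% of all genes. The list median there was 0.342, against -0.144 over all genes. Without the 4 arrays of disputed genotype 6 rose and 1 fell there, where 31.0% of all genes were called.

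Acat2, which makes acetoacetyl-CoA at the head of the route, rose by 0.50 in H/A against WT (adjusted p = 0.0376), by 0.64 in Del against WT (adjusted p = 0.00904) and by 0.47 in Del against Flox (adjusted p = 0.0231). Cyp51 rose by 0.74 in Del against Flox (adjusted p = 0.0174). Its mean was 10.70 in H/A, 10.50 in Del, 9.77 in Flox and 10.41 in WT livers, so Del lay close to WT. Sterol C14 reduction has a pair of enzymes, and they went opposite ways. Lbr, which is also the lamin B receptor of the nuclear envelope, rose by 0.50 in Del against WT (adjusted p = 0.0395) and by 0.59 in Del against Flox (adjusted p = 0.011), while Tm7sf2 fell by 0.94 (adjusted p = 0.00168) and by 0.47 (adjusted p = 0.0383). Mvd, Pmvk, Nsdhl, Ebp and Sc5d were among those not called in H/A and Del against WT and Flox. Without the 4 arrays of disputed genotype Acat2 in H/A against WT and in Del against Flox, Cyp51 in Del against Flox, Lbr in both comparisons and Tm7sf2 in Del against Flox were no longer called.

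**Figure D5:**
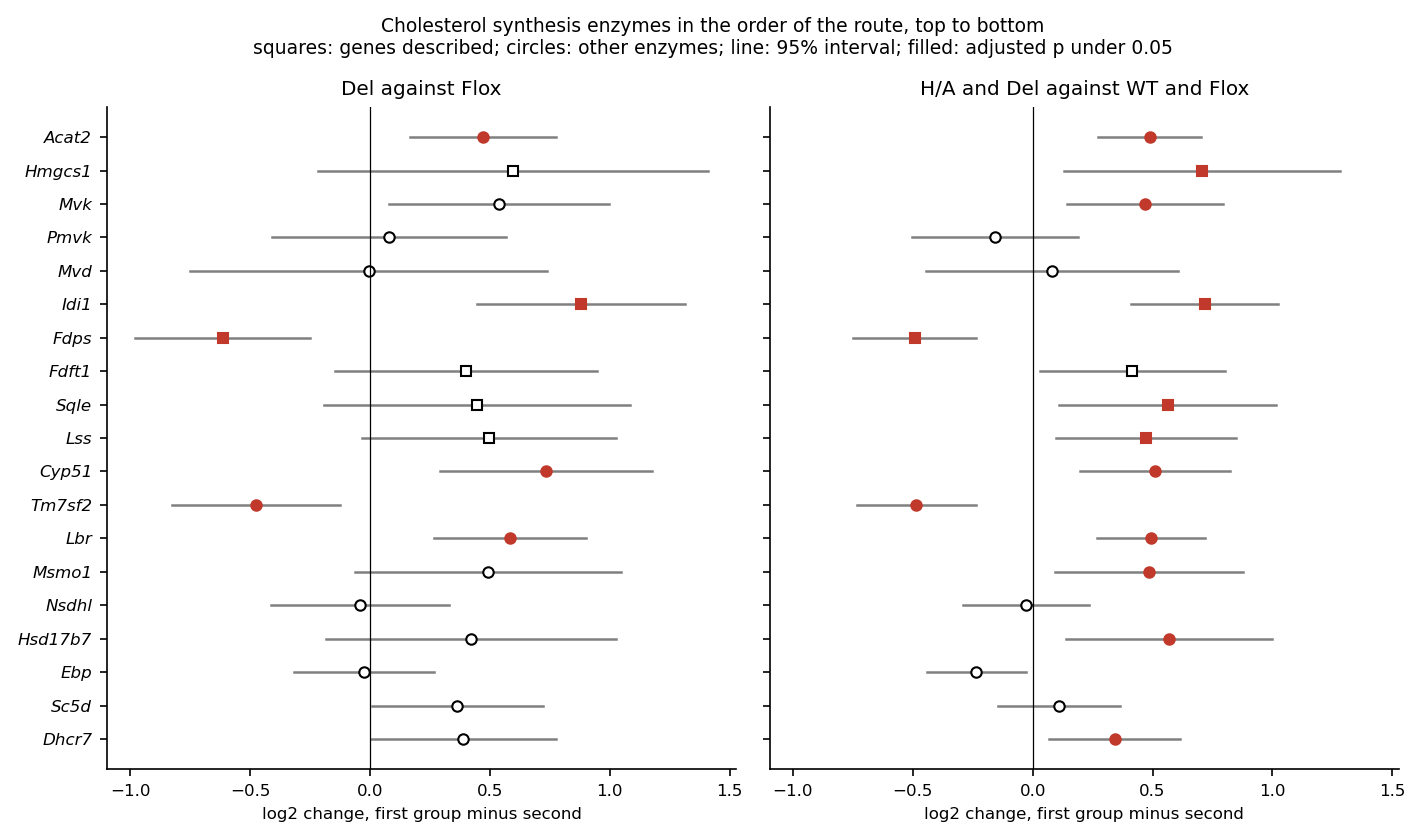
Log2 change (horizontal axes, first group minus second) of cholesterol synthesis enzymes in the order of the route, for Del against Flox and for H/A and Del against WT and Flox, with 95% intervals and filled symbols at an adjusted p under 0.05. Fdps and Tm7sf2 are the filled symbols left of 0, and Idi1, at 0.88 and 0.72, lies farthest to the right of the enzymes drawn.

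Genes of SREBP2 processing and sterol-regulated protein turnover were listed separately, and 7 of 8 were tested. Against WT, 1 rose in H/A, and 1 rose and 1 fell in Del. In Del against Flox 3 rose. With both mutants against both controls 4 rose and 2 fell, against 3 and 1 without the disputed arrays. The share called was 14.3% in H/A against WT, 28.6% in Del against WT, 42.9% in Del against Flox and 85.7% with both mutants. Of all genes, 10.1%, 13.2%, 34.8% and 50.4% were called, and 31.0% in the last without the disputed arrays. Rnf139, a ubiquitin ligase of the endoplasmic reticulum, rose by 0.96 in H/A against WT (adjusted p = 0.00965) and by 0.90 in Del against Flox (adjusted p = 0.00623). Mbtps2, the site-2 protease that frees SREBP2, rose by 0.79 in Del against Flox (adjusted p = 0.0231). Srebf2, which encodes SREBP2, fell by 0.48 in H/A and Del against WT and Flox (adjusted p = 0.00669), and Scap fell by 0.46 in Del against WT (adjusted p = 0.0244). Without the disputed arrays the calls of Mbtps2 and Scap given here were lost.

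Of 8 other SREBP2 targets listed, 6 were tested. Tmem97, a sterol-regulated membrane protein, rose by 0.67 in H/A against WT (adjusted p = 0.0285) and by 0.84 in Del against Flox (adjusted p = 0.00418). Aacs (acetoacetyl-CoA synthetase) fell by 1.22 in Del against WT (adjusted p = 0.0255). Neither the call of Tmem97 against WT nor that of Aacs held without the disputed arrays. With both mutants against both controls 1 rose, Tmem97, and 0 fell. The share called was 16.7% there, against 50.4% of all genes. It was also 16.7% in H/A against WT, Del against WT and Del against Flox, against 10.1%, 13.2% and 34.8% of all genes.

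The side branches of the route, with 7 of 8 genes tested, had 1 that rose in H/A against WT and 1 in Del against WT, and 3 that rose and 1 that fell in Del against Flox. The share called was 14.3%, 14.3% and 57.1%, against 10.1%, 13.2% and 34.8% of all genes. Dhdds, which builds dolichol from farnesyl diphosphate, rose by 0.69 in H/A against WT (adjusted p = 0.0293), by 0.68 in Del against WT (adjusted p = 0.0247) and by 1.26 in Del against Flox (adjusted p = 0.000415). Its 8 H/A and Del livers were all above its 8 Flox and WT livers, and 5.71% of all genes lay apart so in either direction. Pdss2, a subunit of the enzyme that makes the coenzyme Q tail, rose by 0.82 in Del against Flox (adjusted p = 0.00367), and the other subunit, Pdss1, fell by 0.63 (adjusted p = 0.0423). Without the disputed arrays Dhdds in H/A against WT and Pdss1 in Del against Flox were no longer called.

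Of 9 genes of cholesterol esterification and breakdown, 8 were tested. Soat2, an acyltransferase that stores cholesterol as ester, rose by 0.66 in H/A against WT (adjusted p = 0.0319) and by 0.53 in Del against Flox (adjusted p = 0.0352). Its call in H/A against WT was lost without the disputed arrays. Soat1, the other acyltransferase, was well above background on 5 of 16 arrays only, and no change is given for it. Cyp7b1, an oxysterol hydroxylase of the alternative bile acid route, fell by 3.16 in H/A against WT (adjusted p = 0.00699), fell by 3.14 in Del against WT (adjusted p = 0.00497) and fell by 2.62 in Del against Flox (adjusted p = 0.00899). Its log2 intensity was 6.99 to 7.34 over H/A livers, 7.10 to 7.30 over Del livers and 9.79 to 10.81 over WT livers. In Flox livers it was 6.87, 10.53, 11.08 and 10.80. Flox replicate 1, 1 of the 4 arrays of disputed genotype, thus lay as low as the H/A and Del livers. Without those 4 arrays the change in Del against Flox was -3.59 (adjusted p = 4.49e-06), the lowest adjusted p among the settings tried, and the highest was 0.668, with the scanner files as listed. Cyp7a1, the rate-limiting enzyme of bile acid synthesis, averaged 10.69 ± 1.10 in H/A, 10.01 ± 1.496 in Del, 9.25 ± 1.05 in Flox and 9.23 ± 1.44 in WT livers and was not called.

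Targets of SREBP1c, the relative of SREBP2 that drives fatty acid synthesis, were counted likewise: of 11 tested, 2 fell in H/A against WT, 3 in Del against WT and 4 in Del against Flox, and 0 rose in any of these. The share called was 18.2%, 27.3% and 36.4%, against 10.1%, 13.2% and 34.8% of all genes, so in Del against Flox it was near that of all genes. Acacb, the mitochondrial acetyl-CoA carboxylase, fell by 1.60 in H/A against WT (adjusted p = 0.000197), by 1.83 in Del against WT (adjusted p = 3.72e-05) and by 1.32 in Del against Flox (adjusted p = 0.000333). Thrsp, a lipogenic regulator, fell by 2.77 in Del against WT (adjusted p = 0.00442) and by 2.73 in Del against Flox (adjusted p = 0.00325). Fasn, the fatty acid synthase, was not called in these comparisons. Of 11 clock genes tested, 0 were called by limma in H/A against WT, Del against WT or Del against Flox (3, 1 and 3 at an unadjusted p under 0.05), and 3 (Cry2, Per1 and Npas2) fell in H/A and Del against WT and Flox. The latter were 27.3% of the clock genes, against 50.4% of all genes called there.

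Markers of some other cells moved with genotype. Of 11 macrophage markers tested, 9 were called higher and 0 lower in H/A against WT, 8 and 0 in Del against WT and 7 and 1 in Del against Flox. The share called was 81.8%, 72.7% and 72.7%, against 10.1%, 13.2% and 34.8% of all genes. The summed intensity of the macrophage markers was 8999 to 18850 over H/A livers and 10030 to 11180 over Del livers, with 4520 to 6882 over Flox livers and 3806 to 7559 over WT livers. Of 5 neutrophil markers, 2 rose in H/A against WT (S100a8 and S100a9), and 1 (S100a8) rose in Del against WT and in Del against Flox. The median log2 change of the 5 was 0.40, -0.184 and -0.373, against -0.095, -0.106 and -0.141 over all genes. The sum of the 5 was 458.6 to 911.6 over H/A livers and 398.0 to 475.4 over Del livers, with 289.2 to 391.5 over Flox livers and 241.7 to 369.1 over WT livers. The 10 hepatocyte markers summed to 307900 to 353800 over H/A livers, 312800 to 342000 over Del livers, 331600 to 355500 over Flox livers and 339400 to 375700 over WT livers. Of these 10 in H/A livers, Cps1 rose and Serpina1e fell against WT. In the same comparison 0 of 5 cholangiocyte, 0 of 7 lymphocyte, 0 of 8 stellate cell, 0 of 7 sinusoidal endothelial and 0 of 3 adipocyte markers were called by limma (1, 0, 1, 2 and 1 at an unadjusted p under 0.05), while 1 of 4 erythroid and 1 of 3 pancreatic acinar markers fell. In Del against Flox 1 cholangiocyte, 3 stellate cell and 1 adipocyte marker rose, 1 sinusoidal endothelial marker fell, and 0 lymphocyte, erythroid and acinar markers were called by limma (4, 3 and 2 at an unadjusted p under 0.05). Of all genes, 34.8% were called in that comparison. Without the disputed arrays 7 macrophage markers rose in H/A against WT and 5 in Del against Flox, where 3.54% and 16.4% of all genes were called. The part of these cells in the values of the 7 genes was not tested.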

How the data were processed

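Per the labels' protocols, liver RNA was primed with a mix of random and oligo-dT primers and labelled with Cy3. It was hybridised to 16 subarrays of 2 Agilent slides. Agilent Feature Extraction 11 and Partek are named, per the submitters' processing notes. The scanner files hold spot intensity, background-subtracted per the file headers. The deposited value table holds log2 values whose 16 columns share 1 median. They were used as deposited, by sample.

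Of 60037 probes, 36264 could be given a symbol through RefSeq transcripts. The filter kept 37814 probes, those that 4 or more arrays measured well above background, and the brightest by mean stood for each of 31480 genes. All were fitted in 1 model of the 4 genotypes in R 4.3.3 by limma 3.58.1, using moderated tests and Benjamini-Hochberg adjustment over all genes. An adjusted p under 0.05 made a call, and only called genes are said to rise or fall. The 95% intervals are per gene. P-values measure the spread between mice, and the number of arrays limits the precision.

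The 7 genes and all lists were chosen with earlier results of these data known. The text names the 7 genes, up to 4 genes with the smallest p in each list and comparison, and the 8 genes most like them by each of 2 measures. Nsdhl, and list members named beside a comparison in which they rank lower, were named after their values were seen. Correlations used 100000 permutations within groups. Ranges of marker sums are sums of linear intensity. Alternatives were the scanner files by label and as listed, scaling, background correction, filter, probe choice, moderation, slide as a block and within slides, and leaving out arrays. The fit without the 4 disputed arrays and the further probes were added after seeing the data. The procedure was tested on simulated data. A few list members counted here are not reported by name.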

Additional observations from a re-analysis of the deposited data

Results flagged for a closer look

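Among 28 sets of 4 livers (7 genes in 4 genotypes), 2 had a liver far from the other 3, by a gap above Dixon's 95% critical value as a share of the whole range. Chance flags about 1 in 20 such sets. Idi1 in H/A replicate 1 was 10.45 on the log2 scale, against 10.98 to 11.07 in the other H/A livers, with a gap of 0.858 of the range. Fdft1 in WT replicate 1 was 10.87, against 11.55 to 11.63 in the other WT livers, with a gap of 0.899 of the range. WT replicate 1 also had the lowest WT values of Hmgcs1 (11.21), Sqle (8.33), Lss (7.83), Idi1 (9.85), Fdps (11.66) and Insig1 (11.08). No cause was tested for either.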

How the results depend on the processing

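No paired analysis was possible because the labels carry no replicate numbers and the numbers used here only follow accession order. Of 284 alternative values for the 9 called changes of the 7 genes, 195 kept direction and call, 88 kept direction and lost the call, and 1 turned (Insig1 in H/A and Del against WT and Flox with the scanner files as listed, 0.11). All 9 calls were lost with the files as listed, and without the 6 arrays of differing slide.

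The count of genes called in H/A against WT was 0, and 5 with no scaling, with 0 to 1 on leaving out single arrays. In Del against WT it was 1, and 0 with files as listed, without the 6 arrays and within the first slide, 2 with normexp correction, and 1 to 2 on leaving out single arrays. In Del against Flox it was 2, then 1 with scanner files by label at the 75th percentile, 1 with no scaling, 1 without the 4 disputed arrays, 0 with files as listed, without the 6 arrays and within the first slide, and 1 to 3 on leaving out single arrays. In H/A and Del against WT and Flox it was 6, then 2 with no filter, 2 with an unmoderated model, 3 without the 4 disputed arrays, 0 with files as listed, without the 6 arrays and within the first slide, 1 within the second slide, and 2 to 6 on leaving out single arrays. The count was 3 in Del against Flox with normexp correction, with the filter on all 16 arrays and with slide by label as a block. In H/A and Del against WT and Flox the filter on all 16 arrays gave 7. No filter tests more genes, and the left-out settings have fewer arrays. Otherwise the cause was not tested. In Flox against WT and in H/A against Del the count was 0 under each alternative run.

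The other log2 changes that turned belong to values that were not called at first. With files as listed they were Insig1 in H/A against WT (0.27), Del against WT (0.19) and Flox against WT (0.24), and Hmgcs1 in Flox against WT (-0.087). With no scaling they were Insig1 (0.17) and Fdps (0.21) in H/A against WT. With slide by listed file as a block, Del against WT gave Hmgcs1 -0.0007, Lss -0.0058 and Fdft1 -0.16, and Flox against WT gave Hmgcs1 -0.36. With slide by label as a block Hmgcs1 in H/A against Del was -0.0023. Within the first slide Hmgcs1 in H/A against Del was -0.63, and Flox against WT gave Sqle 0.13, Insig1 0.49 and Fdft1 0.21. Within the second, Fdft1 was -0.021 in H/A against WT and -0.024 in Del against WT, and Hmgcs1 in Flox against WT was -0.55. The mean of all probes of Fdft1 gave -0.19 in Del against WT, -0.14 in Del against Flox and -0.026 in H/A and Del against WT and Flox. The dimmer probe of Fdft1 alone gave -0.25 in H/A against WT, -0.52 in Del against WT, -0.69 in Del against Flox, 0.17 in Flox against WT and -0.47 in H/A and Del against WT and Flox. In that comparison and in Del against Flox it passed the test in the fit of all probes. Another probe of Lss gave -0.033 in Del against WT. On leaving out single arrays, Del against WT ran between -0.084 and 0.39 for Sqle, -0.095 and 0.29 for Lss, and -0.045 and 0.21 for Fdft1. Flox against WT ran between -0.21 and 0.41 for Hmgcs1 and -0.23 and 0.047 for Insig1, and H/A against Del between -0.084 and 0.34 for Hmgcs1.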
